A study of Saccharomyces cerevisiae with 14 samples.

Results

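The second glucose interval is the second growth and dilution cycle of a yeast competition screen, in which a library of human cofilin-1 N-terminal tails was the cells' source of cofilin. It was read from 6 of 24 libraries with count columns, the T1 and T2 glucose samples of 3 screens, and every one of the 16000 library variants was used, grouped by the residue at positions 2, 3, 4 and 5. Both groups were Saccharomyces cerevisiae TH_5610 (TeTO7-COF1), in which doxycycline (DOX) switches off the endogenous COF1 gene (YLL050C, chromosome XII, positions 39804 to 40414, assembly R64). All cells carried the library on the high-copy plasmid pRS423-GPD and a LIMK1 plasmid under the GAL1 promoter, which glucose represses. T1 and T2 were both taken from medium with 2% glucose and 10 mg/L DOX. The T2 culture of a screen was grown from its T1 culture after dilution to an OD600 of 0.1, so the libraries are paired by screen. T0, the start of the glucose culture, was taken after growth in raffinose with DOX, so the first interval includes a change of sugar and the second does not. The 3 screens were grown from frozen aliquots of one transformed pool. Their spread is that of repeated cultures, not of independent transformations. The plasmid carries its own constitutive GPD promoter, and the level of each variant protein was not measured here.

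Cofilin is a small protein that binds and severs actin filaments, and its activity is essential in budding yeast. Its N-terminal tail lies at the contact with actin, and Ser3 in that tail is the site that LIM kinases phosphorylate to switch cofilin off. A variant that supports growth better than the rest of the pool gains reads from one time point to the next, and a variant that supports it less well loses them, so every change below is relative to the pool and is not a growth rate.

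The variable stretch is 12 bases long and encodes residues 2 to 5 after the initiator Met. Every library protein carried a polyhistidine tag ahead of that Met, so none had a native N-terminus. The paper used the tag to keep modifications such as Met removal and acetylation from varying with the sequence. Variants are named by those 4 residues. The coding stretches below are those of the tails on which the results turn, written 5′ to 3′, with capitals marking codons that differ from the human tail ASGV. RSGV is the tail of yeast Cof1 and ASGM that of an Arabidopsis ADF, ATGV is the human tail with Thr3, and ASWV, ASTV and ASGH are single substitutions at the ends of the range. GTGI, LTNT and PSLC are among the largest rises, RSWG and HTGP among the largest falls.
ASGV: gctagcggtgtt
RSGV: CGTagcggtgtt
ASGM: gctagcggtATG
ATGV: gctACCggtgtt
ASWV: gctagcTGGgtt
ASTV: gctagcACTgtt
ASGH: gctagcggtCAT
GTGI: GGTACCggtATC
LTNT: CTGACCAACACT
PSLC: CCGagcCTGTGC
RSWG: CGTagcTGGGGT
HTGP: CATACCggtCCG

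The libraries held 24706877, 40596403 and 23413923 reads at T1 and 24313537, 61265998 and 28832362 at T2 in screens 1, 2 and 3. The pool narrowed over the interval. The median variant held 17.2, 12.4 and 12.6 rpm (reads in a library scaled to 1000000 reads) at T1 and 4.07, 4.06 and 1.87 rpm at T2. The number of variants that together held 50% of the reads, ranked from the most abundant, went from 1790, 1703 and 1702 to 1100, 1077 and 1051. The less abundant 8000 variants of each library held 6.38%, 4.57% and 4.07% of its reads at T1 and 1.54%, 1.55% and 0.591% at T2. Screen 3 stood apart at the low end, where 1460 variants had fewer than 10 reads at T2, against 83 and 2 in screens 1 and 2. The median log2 change was −1.50, −1.30 and −2.09 in screens 1, 2 and 3, and the part of the low counts in the larger value of screen 3 was not tested.

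Few variants gained a larger share of the pool. In edgeR's quasi-likelihood test with the screen as a block, 2030 variants rose (12.7% of those tested) and 11488 fell (71.8%), 84.5% in all at an adjusted p under 0.05. Of these calls, 2008 rises and 11362 falls had the same sign in all 3 screens. The rising variants together went from 42.1% to 66.2% of the reads, and the falling ones from 41.3% to 17.3%. The median log2 change of a variant that rose was 0.65 and the largest was 1.29, whereas 6054 of the falling variants had lost more than 2 on the log2 scale. The split between rises and falls depends on the zero. With TMM scaling, which sets the zero near the typical variant, 3663 rose and 3861 fell, and relative to ASGV 0 rose and 12596 fell in the same edgeR test (12740 at an unadjusted p under 0.05). ASGV itself changed by 0.12, 0.95 and 0.88 in screens 1, 2 and 3, and this spread enters every value scaled to it. The 0 therefore does not show that no variant gained more than ASGV, whose edgeR change was 0.65 against a largest rise of 1.29. The residue terms and pair terms below are differences within a library and do not move with the choice of zero. The counts of rises and falls by residue and the median changes do.

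Position 5, Val in the human tail, carried most of what single residues accounted for. Its residue accounted for 30.9% ± 1.9 (SD, n = 3 screens) of the variance of the log2 change over variants, position 4 for 6.82% ± 0.83, position 2 for 1.66% ± 0.20 and position 3 for 0.387% ± 0.059. Pairs of residues accounted for a further 21.0% ± 3.4. Of 62 residues, 48 had a mean log2 change that differed from the mean of the library (77.4%; limma on 1 value per screen), 19 above it and 29 below. Without screen 1, 0 passed in limma (34 at an unadjusted p under 0.05). The 20 terms of a position sum to 0, so they are not independent of one another.

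Met5 gained most. Its 800 variants held 13.4%, 13.2% and 13.1% of the reads at T1 and 19.1%, 18.4% and 18.9% at T2 in screens 1, 2 and 3, and each T2 value was above every T1 value. The mean log2 change of Met5 variants was above that of the library by 1.49, 1.26 and 1.95 (mean 1.56, SE 0.15, adjusted p = 0.0084, limma), the highest value of any residue in every screen. Of the 800 Met5 variants, 476 rose and 167 fell, where 12.7% of all variants rose and 71.8% fell. Met is a long, flexible and unbranched hydrophobic residue, and it is the native residue at this position in the Arabidopsis tail ASGM.

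The beta-branched residues Ile, Thr and Val at position 5 followed. The Ile5 term was 1.07, 0.89 and 1.42 (mean 1.13, SE 0.12, adjusted p = 0.0085) and the Thr5 term 1.09, 0.88 and 1.36 (mean 1.11, SE 0.11, adjusted p = 0.0084). These terms differed by 0.01 ± 0.04 (SD) within a screen, and neither was ahead in all 3 screens. Met5 stood above Ile5 by 0.44 ± 0.08, and Thr5 above Val5 by 0.21 ± 0.05, each in 3 of 3 screens. Thr5 variants went from 10.8%, 10.8% and 10.8% of the reads to 14.9%, 14.5% and 15.1%, and Ile5 variants from 14.2%, 15.0% and 15.4% to 16.9%, 18.0% and 18.0%. At T1 Ile5 held the larger share than Met5 in every screen, and at T2 Met5 held the larger share.

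Val5, the human residue, had a term of 0.87, 0.72 and 1.11 (mean 0.90, SE 0.09, adjusted p = 0.0084). It was followed by Leu5 (mean 0.72, SE 0.10) and Cys5 (mean 0.71, SE 0.08), which differed from each other by 0.01 ± 0.04. Although these 3 terms were above the library mean, the median variant lost ground against the total, with median log2 changes of −0.13 ± 0.06 for Val5, −0.38 ± 0.01 for Leu5 and −0.38 ± 0.02 for Cys5 (SD, n = 3). Rises and falls were 297 and 363 for Val5, 204 and 370 for Leu5, and 207 and 413 for Cys5, of 800 variants each. Of all variants, 12.7% rose and 71.8% fell. For these 3 residues falls outnumbered rises, and with TMM scaling that order turned, to 488 and 108, 428 and 126, and 432 and 128. The reads of these 3 residues together did not shrink, since Val5 went from 13.4% ± 0.5 to 15.6% ± 0.6, Leu5 from 7.59% ± 0.40 to 7.88% ± 0.24 and Cys5 from 9.95% ± 0.24 to 10.2% ± 0.1.

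The Met5, Ile5, Thr5, Val5 and Leu5 variants (4000 of 16000) held 58.6%, 60.1% and 61.2% of the reads at T1 and 73.5%, 74.9% and 75.9% at T2. Of them, 1700 rose (42.5%) and 1476 fell (36.9%), against 12.7% and 71.8% of all variants. A favoured residue at position 5 thus did not by itself place a variant among the rises. With Cys5 added, these residues accounted for 1907 of the 2030 rises.

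The lowest residue terms were those of Trp5 (−0.65, SE 0.11), Gln5 (−0.63, SE 0.05), Asp5 (−0.62, SE 0.08), His5 (−0.58, SE 0.07) and Glu5 (−0.58, SE 0.10), with adjusted p between 0.0081 and 0.0124. Only Asp5 and His5 kept their order in all 3 screens among neighbours of this list. None of the 800 variants of Trp5, Gln5, Asp5, His5, Glu5, Asn5, Arg5 or Lys5 was among the rises, against 12.7% of all variants. Between 613 (Lys5) and 745 (Gln5) of the 800 with each residue fell, against 71.8% of all variants. Gln5 held more of the pool at T1 than the others, and went from 3.16%, 3.12% and 2.66% of the reads to 1.20%, 1.01% and 0.844%.

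Charged residues at position 5 (Asp, Glu, Lys, Arg and His, 4000 variants) held 4.76%, 3.78% and 3.41% of the reads at T1 and 1.47%, 1.38% and 0.809% at T2. None of them rose and 3446 fell (86.15%), against 12.7% and 71.8% of all variants. Their median level was already 8.14, 5.49 and 4.70 rpm at T1, and was 1.97, 1.96 and 0.659 rpm at T2 and 1.59, 2.21 and 0.780 rpm at T3. Lys5 had the smallest departure of the charged residues, with terms of −0.26, 0.02 and −0.28 that did not pass the test (adjusted p = 0.115).

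Between the leading and the lowest residues of position 5 lay Phe5, Ala5, Ser5, Gly5, Pro5 and Tyr5. Lys5 (−0.17), Arg5 (−0.37) and Asn5 (−0.49) lay there too. Phe5 had a term of −0.19 (SE 0.05, adjusted p = 0.0398), Ala5 −0.17 (SE 0.03), Ser5 −0.37 (SE 0.05), Gly5 −0.36 (SE 0.03) and Pro5 −0.38 (SE 0.03). Phe5 variants held 6.52%, 6.86% and 6.23% of the reads at T1 and 4.47%, 3.94% and 4.05% at T2, and Ser5 variants 4.35%, 4.45% and 4.31% and then 2.63%, 2.33% and 2.39%. Tyr5, which differs from Phe5 by a hydroxyl group, had a term of −0.57 (SE 0.09), below Phe5 in 3 of 3 screens by 0.38 ± 0.29. The counts of rises were 54 for Phe5, 24 for Ala5, 18 for Ser5, 12 for Gly5, 10 for Pro5 and 5 for Tyr5. Each residue has 800 variants, and 12.7% of all variants rose.

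At position 4, Gly in the human tail, Leu4 ranked above Gly4 over all variants. The Leu4 term was 0.75, 0.52 and 0.93 in screens 1, 2 and 3 (mean 0.74, SE 0.09, adjusted p = 0.0100, limma), the Gly4 term 0.34, 0.37 and 0.60 (mean 0.44, SE 0.07, adjusted p = 0.0101), and Leu4 was ahead in 3 of 3 screens by 0.30 ± 0.13. Trp4 (0.43), Phe4 (0.37), Asn4 (0.31), Met4 (0.28) and Ile4 (0.25) followed, and among these neighbours, from Gly4 down, only Trp4 and Phe4 kept their order in every screen. Of 800 variants each, 268 rose and 365 fell for Leu4, 219 and 439 for Gly4, 190 and 494 for Phe4 and 187 and 426 for Trp4. Of all variants, 12.7% rose and 71.8% fell. Leu4 variants went from 6.35%, 7.13% and 6.58% of the reads to 8.47%, 8.76% and 8.83%, and Gly4 variants from 6.70%, 6.06% and 5.94% to 8.11%, 8.77% and 8.46%. Gly, which has no side chain, and the large hydrophobic residues Leu, Trp and Phe were thus all above the library mean at this position. In a split by the residue at position 5, added after the values were seen, the lead of Leu4 over Gly4 was not seen in both sets. With Met, Ile, Thr, Val or Leu there, Gly4 was at 0.85, 1.10 and 1.32 in screens 1, 2 and 3. Leu4 was at 1.12, 0.90 and 1.18, so neither was ahead in all 3 screens. With another residue there, Leu4 was at 0.63 (SE 0.08) and Gly4 at 0.22 (SE 0.05).

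Glu4 had the lowest term of position 4, at −0.42, −0.35 and −0.76 (mean −0.51, SE 0.10, adjusted p = 0.0141). Of its 800 variants 3 rose and 700 fell, where 12.7% of all variants rose and 71.8% fell. Glu4 variants went from 1.79%, 1.60% and 1.82% of the reads to 0.877%, 0.877% and 0.739%. Asp4, shorter by a methylene group, stood above Glu4 by 0.25 ± 0.13 in 3 of 3 screens. Asn4 and Gln4, which differ by the same group, lay on opposite sides of the library mean, at 0.31 (SE 0.04) and −0.33 (SE 0.04). The branched residues also parted at position 4. Ile4 was above the mean (0.25, SE 0.05) and Val4 below it (−0.20, SE 0.03), a gap of 0.45 ± 0.12 in 3 of 3 screens, and Val4 variants went from 6.29%, 6.23% and 6.50% of the reads to 4.44%, 4.42% and 4.36%. Of the basic residues, Lys4 (−0.27), Arg4 (−0.32) and His4 (−0.15) were all below the mean, and so was Pro4 (−0.32).

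At position 2, Ala in the human tail, the differences were smaller. Leu2 was highest with a term of 0.35, 0.26 and 0.47 (mean 0.36, SE 0.05, adjusted p = 0.0100). Phe2 (0.24), Tyr2 (0.20), Met2 (0.20) and Trp2 (0.12) were the other residues that passed the test above the mean. Glu2 (−0.30, SE 0.06), Asp2 (−0.26, SE 0.05), Val2 (−0.18), Ala2 (−0.15) and Gly2 (−0.13) passed below it. The human residue Ala2 was therefore among the lowest 4 of position 2, although ASGV itself was among the variants that rose. Leu2 variants held 5.81%, 6.11% and 5.82% of the reads at T1 and 6.99%, 7.14% and 7.03% at T2.

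Residues at positions 2 to 4 were spread more widely where position 5 was permissive. In a comparison added after the values were seen, residue terms at these positions were computed among the 4000 variants whose position 5 was Met, Ile, Thr, Val or Leu and among the other 12000. In the first set 36 of 42 terms differed from 0 (85.7%), in the second 21 (50%), and the terms of the sets differed from each other for 39 of 42 residues (92.9%). The SD of the terms over residues was 0.62 in the first set and 0.17 in the second. Glu4 had a term of −1.43 in the first set and −0.20 in the second (difference −1.22, SE 0.07), Gly4 1.09 and 0.22 (difference 0.87, SE 0.05), and Leu4 1.06 and 0.63 (difference 0.44, SE 0.04). Median levels at T1 were between 71.9 (Leu5) and 167 rpm (Ile5) for the residues of the first set. In the second set they were between 3.94 (Arg5) and 39.8 rpm (Phe5), apart from Cys5 (102 rpm), and the part of the low levels in the smaller spread was not tested.

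With a permissive residue at position 5, calls differed by the residue at position 4. Of the 200 variants with each residue at position 4 in that set, 177 with Gly4, 173 with Leu4, 172 with Phe4, 153 with Met4 and 151 with Trp4 rose, and between 1 and 4 of each fell. Of the 200 with each of the following residues, 169 with Glu4, 144 with Asp4, 144 with Gln4, 142 with Arg4 and 140 with Lys4 fell. Over the whole set 42.5% rose and 36.9% fell, whereas 71.8% of all library variants fell. The median log2 change was 0.78 ± 0.22 for Gly4 and −1.89 ± 0.56 for Glu4. At position 2 of the same set, 137 of 200 variants with Leu2 rose and 22 fell, while 36 with Glu2 rose and 132 fell.

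Ser3 and Thr3 occupied 8000 variants each. Thr3 held 58.5%, 57.9% and 58.1% of the reads at T1 and 60.1%, 58.7% and 59.4% at T2. The Thr3 term was 0.07, 0.06 and 0.10 above the mean, a difference that did not pass over all 62 residues (adjusted p = 0.0574, limma). Of Thr3 variants 1155 rose and 5619 fell, and of Ser3 variants 875 rose and 5869 fell. These are 14.4% and 10.9% rises and 70.2% and 73.4% falls, close to the 12.7% and 71.8% of all variants. Among the 8000 pairs that differ at position 3 alone, limma called 0 pairs (0%), with 1815 at an unadjusted p under 0.05, and the mean difference of Thr3 over Ser3 was 0.14, 0.13 and 0.20 on the log2 scale.

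That average hid a large dependence on the residue at position 5. With Thr5, Thr3 exceeded Ser3 by 1.12, 1.04 and 1.42 in screens 1, 2 and 3 (mean of 400 pairs each), and with Cys5 by 0.63, 0.52 and 0.79. With Leu5 the difference was −0.08, −0.03 and −0.02, and with Phe5 −0.15, −0.19 and −0.14. The 400 variants with Thr3 and Thr5 had a median of 162, 160 and 158 rpm at T1 and 233, 222 and 231 rpm at T2, while those with Ser3 and Thr5 went from 62.5, 61.9 and 64.6 rpm to 42.9, 38.9 and 38.5 rpm. Of the former, 267 rose and 63 fell, and of the latter 95 rose (23.75%) and 210 fell (52.5%). Of all variants, 12.7% rose and 71.8% fell. The pair term of Thr3-Thr5, which is the excess over the sum of both residue terms, was 0.49, 0.46 and 0.61 (mean 0.52, SE 0.05, adjusted p = 0.0019 over all residue pairs). For Thr3-Cys5 it was 0.24 (SE 0.04, adjusted p = 0.0094) and for Thr3-Phe5 −0.16 (SE 0.04, adjusted p = 0.0258). The rank of Thr5 as a residue thus differed between Ser3 and Thr3 variants. With Ser3 the median log2 change was −0.71 ± 0.07 for Thr5 and 0.03 ± 0.04 for Ile5. With Thr3 it was 0.63 ± 0.05 and 0.19 ± 0.04.

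Of all residue pairs at different positions, 297 had a pair term above 0 and 267 below (42.7% of those tested, limma). Positions 4 and 5 had 273 of 400 pairs called, positions 2 and 5 had 185 of 400, positions 2 and 4 had 94 of 400 and positions 3 and 5 had 8 of 40. Positions 2 and 3 and positions 3 and 4 had 2 of 40 each. Position 3 held only Ser or Thr, so a Ser3 pair term is the Thr3 term with the opposite sign. Each result with position 3 is therefore counted for Thr3 and again for Ser3. The 5 highest terms were Met4-Phe5 (1.50, SE 0.12, adjusted p = 0.0017), Leu4-Phe5 (1.31, SE 0.08), Leu4-Ser5 (1.20, SE 0.13), Leu2-Pro5 (0.98, SE 0.08) and Leu4-Ala5 (0.97, SE 0.10), each above 0 in 3 of 3 screens.

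Many of the rises outside the 6 leading residues of position 5 carried Leu4. Of 123 such rises, 63 carried Leu4, 19 Met4, 13 Gly4 and 9 Trp4. Of all 2030 rises, 268 carried Leu4, 190 Met4, 219 Gly4 and 187 Trp4. Each residue of position 4 is carried by 800 of the 16000 variants. Of the 54 Phe5 variants that rose, 28 carried Leu4 and 17 Met4. The 40 variants with Leu4 and Phe5 had a median of 110, 125 and 103 rpm at T1 and 172, 177 and 153 rpm at T2, whereas the median over all Phe5 variants went from 41.1, 39.5 and 38.8 rpm to 10.4, 10.8 and 6.82 rpm. Of the 18 Ser5 rises 11 carried Leu4, of the 24 Ala5 rises 17 did, and of the 12 Gly5 rises 7 did. All 5 Tyr5 rises carried Gly4. The Gly4-Tyr5 pair term, however, was 0.02, −0.14 and 0.37 in screens 1, 2 and 3 and did not pass (adjusted p = 0.54, limma). Val4 gave no combination like that of Leu4 and Phe5, with 1 rise and 38 falls among its 40 Phe5 variants. These counts were read after the pair terms had been seen and carry no test.

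The lowest pair terms joined a charged residue at position 4 or 2 with a favoured residue at position 5. They were Glu4-Leu5 (−1.10, SE 0.11, adjusted p = 0.0022), Glu4-Ile5 (−1.10, SE 0.08), Asp2-Thr5 (−1.06, SE 0.06), Glu4-Met5 (−0.99, SE 0.05) and Arg4-Leu5 (−0.98, SE 0.07). The 40 variants with Glu4 and Leu5 had median levels of 13.0, 10.2 and 9.29 rpm at T1 and 2.02, 1.90 and 0.746 rpm at T2. With Met5, the most favoured residue, Glu4 variants kept a higher level, at 56.9, 46.4 and 74.0 rpm and then 21.2, 15.7 and 23.3 rpm.

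Gly4 with Val5, the combination of the human and yeast tails, rose relative to total reads in nearly every variant that carried it. Its 40 variants had median levels of 344, 247 and 229 rpm at T1 and 442, 536 and 467 rpm at T2. Of these 40, 39 rose, against 12.7% of all variants. All 40 variants with Gly4 and Ile5 rose, from 225, 187 and 206 rpm to 294, 397 and 416 rpm. These calls depend on the zero, since with ASGV, itself a Gly4-Val5 tail, as the zero 0 variants rose. In both sets screen 1 started higher than screens 2 and 3 and gained less, with median log2 changes of 0.38 for Gly4-Val5 and 0.47 for Gly4-Ile5 against 0.97 to 1.07 in the other screens. The Gly4-Val5 pair term was 0.51, 1.05 and 1.06 (mean 0.87, SE 0.12, adjusted p = 0.0045). The highest medians of any pair of residues at positions 4 and 5 were those of Phe4-Met5 (0.95 ± 0.04) and Gly4-Met5 (0.94 ± 0.22), which overlapped within their spread.

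The human tail ASGV held 445, 315 and 233.6 rpm at T1 and 483, 609 and 430 rpm at T2 in screens 1, 2 and 3, a log2 change of 0.12, 0.95 and 0.88 (edgeR 0.65, SE 0.11). Screen 1 had the highest T1 level and the smallest gain, as for the Gly4-Val5 group. The yeast tail RSGV went from 273, 306 and 268 rpm to 434, 586 and 512 rpm (0.85, SE 0.08). The Arabidopsis tail ASGM went from 370, 264 and 319 rpm to 616, 558 and 724 rpm (1.00, SE 0.08), with no overlap between T1 and T2. ATGV, the Thr3 form of the human tail, had the largest gain of these, from 222, 158 and 175 rpm to 389, 376 and 421 rpm (1.11, SE 0.10), and it gained more than ASGV in each screen. ATGV and ASGV were tested against each other as 1 of the 8000 pairs above, none of which was called. In edgeR with ASGV as the zero, 0 variants rose, so RSGV, ASGM and ATGV were not called above ASGV. RSGV, ASGM and ATGV were not tested against one another.

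Of the tails that the study assayed one by one, LSGV (0.58), LSGM (0.94), DSGV (0.46), ASLV (0.66) and ASFV (0.43) rose, and so did FTGL (0.49). DSGV had log2 changes of −0.19, 0.99 and 0.58, so its rise did not hold in screen 1. ASAV (−2.21), ASPV (−2.34), ASEV (−1.56), ASKV (−1.95) and ASGE (−2.19) fell. ASAV, in which Gly4 is replaced by Ala, the next smallest residue, had 28.2, 39.8 and 29.7 rpm at T1 and 1.81, 28.0 and 6.21 rpm at T2. Its loss was large in screens 1 and 3 and small in screen 2 (log2 −3.95, −0.51 and −2.26). ASPV went from 34.2, 57.6 and 28.7 rpm to 7.44, 17.9 and 3.16 rpm, below every T1 value in all 3 screens. ASGE had 27, 118 and 6 reads at T2.

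Single substitutions of the human tail rose in different numbers at each position. At position 2, 19 of 20 xSGV tails rose and 0 fell in edgeR, against 12.7% and 71.8% of all variants, from RSGV (0.85, SE 0.08) at the top to GSGV (0.16, SE 0.11, adjusted p = 0.187) at the bottom. Of these rises, DSGV (−0.19), QSGV (−0.16) and ESGV (−0.14) were below 0 in screen 1. The other xSGV rises were above 0 in every screen, though VSGV and MSGV (0.06) and NSGV (0.07) only slightly in screen 1. At position 4, 6 of 20 ASxV tails rose and 10 fell. ASWV led with 0.93, 0.95 and 1.04 (0.97, SE 0.09), ahead of ASLV and ASGV, and ASTV fell most with −3.28, −2.23 and −4.10 (−3.20, SE 0.55). The others that rose were ASIV, ASMV and ASFV. At position 5, 6 of 20 ASGx tails rose and 8 fell. ASGM was highest, followed by ASGC, ASGL, ASGV, ASGI and ASGT, and ASGH was lowest with −3.40, −0.70 and −4.81 (−2.98, SE 0.73). ASGP, at a mean of 0.919 rpm at T1 and 1.04 rpm at T2, was too low to show a change.

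The 5 largest rises among variants with a mean of at least 200 reads over the 6 libraries were LTNT (1.29, SE 0.12), GTGI (1.28, SE 0.09), PSLC (1.28, SE 0.11), LSNM (1.23, SE 0.44) and MSSM (1.23, SE 0.34). They carry Thr, Ile, Cys, Met and Met at position 5. GTGI went from 207, 228 and 146 rpm to 434, 529 and 436 rpm, and LTNT from 95.7, 93.4 and 78.4 rpm to 236, 203 and 213 rpm. LSNM started at 11.7, 26.4 and 11.4 rpm and its error is correspondingly larger. The 5 largest falls were RSWG (−4.01, SE 0.66), CTHG (−4.00, SE 0.53), SSCS (−3.99, SE 0.63), CSED (−3.96, SE 0.55) and HTGP (−3.96, SE 0.61). None has one of the 6 leading residues at position 5. RSWG went from 31.1, 25.5 and 18.0 rpm to 1.36, 4.72 and 0.486 rpm, near the median level of the charged variants at T2. GTGI and HTGP share Thr3 and Gly4 and lie at opposite ends of this ranking.

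The second interval was compared with the first (T0 to T1) and the third (T2 to T3) through the residue terms of each, side by side, since neighbouring intervals share a library. The median absolute log2 change of a variant was 2.30 ± 0.12 in the first interval, 1.63 ± 0.41 in the second and 0.39 ± 0.08 in the third. Position 5 accounted for 54.7% ± 0.8 of the variance over variants in the first, 30.9% ± 1.9 in the second and 5.19% ± 3.35 in the third. The term of Met5 was 2.68, 1.56 and 0.11, and that of Asp5 −1.62, −0.62 and 0.11. For Leu4 it was 1.29, 0.74 and 0.05.

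Tested directly within screens, 43 of 62 residue terms differed between the second and the first interval (69.4%, limma), 21 higher and 22 lower in the second. Of these 43, 35 kept their sign with a smaller departure from the library mean. Arg5 went from −2.01 to −0.37 and Lys5 from −1.87 to −0.17, the largest changes at the low end, at levels of 5.36, 3.65 and 2.82 rpm for the median Arg5 variant at T1. For others the difference did not pass the test. Gln5 was −0.67 and −0.63, Trp4 0.53 and 0.43, Asn4 0.20 and 0.31 and Ala2 −0.14 and −0.15.

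For a group of residues the mean terms had opposite signs. A term is relative to the mean over all variants, so its sign is not that of a gain or loss of reads. Phe5 variants were above the library mean in the first interval (0.57 ± 0.15) and below it in the second (−0.19 ± 0.11), a difference of −0.76 (SE 0.08, adjusted p = 4.0e-05). Ser5 went from 0.27 ± 0.13 to −0.37 ± 0.11 (difference −0.64, SE 0.08) and Ala5 from 0.28 ± 0.15 to −0.17 ± 0.04 (difference −0.45, SE 0.07). The same held for Val4 (0.13 and −0.20) and Val2 (0.10 and −0.18). Cys2 (0.25 and −0.04) and Asn2 (−0.14 and 0.08) also differed between the intervals, but their second terms did not pass the test against the library mean. The adjusted p of these 4 differences was at most 0.0049. Pro5 was near the mean at first (−0.06 ± 0.07) and then below it (−0.38 ± 0.04, difference −0.32). Mean shares of reads at T0, T1 and T2 were 4.77%, 4.37% and 2.45% for Ser5 and 3.66%, 3.31% and 2.09% for Ala5. They were 6.51%, 6.34% and 4.41% for Val4 and 7.75%, 7.29% and 6.26% for Val2. Ser5, Ala5, Val4 and Val2 thus lost share in both intervals. The shares were 6.13%, 6.54% and 4.15% for Phe5, 5.85%, 6.11% and 6.10% for Cys2, and 3.31%, 3.21% and 3.02% for Asn2.

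Single variants were also followed without a shared library. Variants were divided into 10 bins of 1600 by their mean change from T0 to T1 in 2 screens, and the change from T1 to T2 was read in the remaining screen, each screen in turn. These changes are relative to total reads, and TMM scaling raised the median log2 change of the second interval by 1.19, so the order of the bins is given and not their sign. The first to the seventh bin, with first medians from −3.81 to −0.34, had second medians between −2.16 and −1.96, a range smaller than the SD over screens of each. The eighth bin, at 0.96 ± 0.07 in the first interval, was at −0.83 ± 0.20 in the second, the ninth at 0.13 ± 0.04 and the tenth at 0.46 ± 0.06. The aliquots came from 1 pool, so the screens share the makeup of the starting pool.

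The third interval continued little of this. Of 62 residue terms, 40 differed between the third and the second (64.5%, limma), 23 higher and 17 lower. Gly4 kept a term of 0.15 ± 0.04 and Met5 one of 0.11 ± 0.12, while Ile5 was at −0.02 ± 0.18 and Thr5 at 0.00 ± 0.08. Phe5 (−0.21 ± 0.08), Ser5 (−0.19 ± 0.03) and Ala5 (−0.12 ± 0.05) stayed below the mean. Pearson's r between the changes in 2 screens was 0.72 to 0.76 in the second interval, 0.93 to 0.94 in the first and 0.11 to 0.30 in the third, given as a description over 16000 variants that share their starting pool. Without screen 2, 0 of the differences between the third and the second interval passed the test in limma, with 31 at an unadjusted p under 0.05. Without screen 1, 26 passed.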

How the data were processed

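Plasmids were recovered from yeast pellets, the variable region was amplified with barcoded primers and sequenced on an Illumina NovaSeq, and the authors counted reads per variant. The deposited values are raw counts. The program that assigned reads to variants is not given in the sources used here. The forward primers hold 8 random bases, whose use is not stated, so reads need not be independent molecules. Of the 24 count columns, 12 (T0 to T3 in glucose, 3 screens) were used and 12 were not. All 16000 coding stretches translate to their names, and no variant was filtered.

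Single variants were compared by the quasi-likelihood test of edgeR 4.0.16, with the screen as a block and total reads as library size. Residue terms (mean log2 change of the variants with a residue, minus the library mean, 0.5 reads added), pair terms, Thr3 minus Ser3 pairs and differences between intervals were tested with limma 3.58.1 on 1 value per screen. Adjusted p values are Benjamini-Hochberg over all features of a test, with a threshold of 0.05. DESeq2 1.42.0 gave alternatives. R 4.3.3, Python 3.11.15, numpy 2.4.6 and pandas 2.3.3 were used, and both tests were checked on simulated data. In the simulated counts few variants changed, equally up and down. That check cannot show how the tests behave where most variants change in one direction, as here. The pairing by screen comes from the culture protocol. Deviations from group means correlated between T1 and T2 of the same screen with r of 0.41, 0.31 and 0.45, and each T1 library correlated best with its own T2. At T1 and at T2 the screens differed by more than sampling noise, which was not examined for T0 and T3.

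Named variants are the native tails, the tails the study assayed singly, ATGV, FTGL, the ends of the single-substitution series and the 5 largest rises and falls past the threshold with 1 sign in all screens and a mean of at least 200 reads. Residues and pairs are named as the 5 highest and 5 lowest terms, and others by role. Alternatives were other scalings, DESeq2, a minimum of 50 reads, 5 reads added, medians, all 12 glucose series libraries, no block and leaving out a screen. The members, lists and alternatives were chosen with earlier results of these data known.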

Additional observations from a re-analysis of the deposited data

Results flagged for a closer look

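Residue terms differed between successive intervals more often than not, in 43 of 62 residues for the second against the first interval and in 40 of 62 for the third against the second (limma, adjusted p under 0.05). Of the former, 7 residues also had terms of opposite sign in the first and the second interval, of which those of Cys2 and Asn2 did not pass the test in the second. These signs are relative to the library mean and are not gains or losses of reads. The difference of the term, second minus first, was −0.76 for Phe5, −0.64 for Ser5, −0.45 for Ala5, −0.33 for Val4, −0.29 for Cys2, −0.28 for Val2 and 0.22 for Asn2. The first interval includes the change from raffinose to glucose, and its part in these differences cannot be told apart from that of time.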

How the results depend on the processing

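Counts of variants moved with the zero. Rises and falls were 3663 and 3861 with TMM scaling, 3921 and 2010 with size factors from DESeq2, 4306 and 1166 with charged position-5 variants as the zero, and 0 rises with ASGV as the zero. These scalings moved the median log2 change by 1.19, 1.58, 1.73 and −0.65. With DESeq2's Wald test 1991 rose and 10984 fell, and leaving out a screen gave 1866 to 1892 rises and 7941 to 11025 falls.

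Relative to ASGV, LSGV (−0.075), DSGV (−0.19), ASFV (−0.23), FTGL (−0.16) and GSGV (−0.49) changed sign. ASEV did so with size factors from DESeq2 (0.034) and with charged position-5 variants as the zero (0.17). GSGV, which was not called, ranged from −0.028 without screen 2 to 0.35 without screen 1.

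Leaving out a screen gave 0 to 18 residues above the library mean and 0 to 28 below, the lowest without screen 1 (34 at an unadjusted p under 0.05), where 2 values a residue remain. With medians over variants 17 were below. Among variants with Met5, Ile5, Thr5, Val5 or Leu5, 18 were below, and with another residue there 10 were above and 11 below, over 42 residues in place of 62. For the third against the second interval, medians gave 14 residues higher, and leaving out a screen gave 0 to 25 higher and 0 to 17 lower.

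Without the replicate block, 1541 variants rose and 9326 fell, and the unpaired comparison called 22 Thr3 minus Ser3 pairs higher and 1 lower. The block changed no count of residue terms by over 1.5 times. In screen 3 at T2, 1460 variants had fewer than 10 reads. The part of low counts in the results was not tested.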
